A study of Tursiops truncatus with 28 samples.

Results

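The loci described here are the 300 that varied least between animals among 5289 comparable nuclear loci in bottlenose dolphin skin. They were picked from a table of 24091 loci on 359 sequences by their own measured values. A candidate lay off the mitochondrial sequence, spanned 5000 to 100000 bases, and averaged 5 to under 100 FPKM (fragments mapped to a locus, scaled to its transcript length and to all mapped fragments of the library). It also had to be above 0 in all 28 libraries and to have a Pearson correlation under 0.6 in size with the mitochondrial RNA level of the library. The candidates were then ordered by the SD of log2(FPKM + 1) over the 28 libraries, and the 300 lowest were kept. Those SDs are therefore given below as a description, with no test.

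The study measured RNA of archived skin from free-living common bottlenose dolphins (Tursiops truncatus) of Barataria Bay, Louisiana, by RNA sequencing, and every library came from another animal. The groups were 9 females of July 2016, 3 males and 8 females of June 2017, and 3 males and 5 females of September 2017. No treatment is named in the labels. There were no males in July 2016, which also differs from the other sessions in year, so month and year cannot be told apart.

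Skin is built of a renewing epithelium, in cetaceans a thick one, over a dermis of fibroblasts and vessels, with immune and pigment cells among them. In animal tissues generally, transcripts needed by nearly every cell, such as those for protein synthesis, energy supply and cell structure, tend to vary less between individuals than transcripts of immune response or of single cell types. Such steady transcripts are commonly used as internal standards for measuring others. The rows carry positions on the NIST Tur_tru v1 genome and no gene names, and the gene table given for this species is of a different assembly, so none of its 30702 entries matched them. Which genes these loci hold, their exons and the skin markers that would check the tissue were not analysed here, and no sequence is shown.

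The number of reads per library is unknown. Relative depths, read from the spacing of low values, were 0.761 to 1.48. Summed FPKM ran from 815690 to 1078077, and 17418 to 18259 loci per library were above 0. The library of June 2017 male 3 stood apart: its 10 most abundant loci took 41.0% of summed FPKM, against 22.2% to 36.8% in the other libraries, and its relative depth was 0.776. Values without it stand beside the results that it moves. In bulk skin, fewer cells of a type and less RNA per cell cannot be told apart.

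The 300 steady loci differed little between animals. The SD of log2(FPKM + 1) ran from 0.10 to 0.167 with a median of 0.152, against a median of 0.266 over all candidates. The 300 most variable candidates had SDs of 0.508 to 2.18 with a median of 0.609. In ratio terms, the highest of the 28 animals exceeded the lowest by a median of 1.56-fold at the steady loci, with a range of 1.32 to 1.80. That ratio was under 1.5 at 86 steady loci (28.7%), against 90 of all candidates (1.70%). It was under 2 at all 300 steady loci, against 1837 candidates (34.7%). At the most variable candidates the median ratio was 7.23. Without June 2017 male 3 the median ratio of the steady loci was 1.54 and the largest 1.76, and 108 of them were under 1.5.

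**Figure D1:**
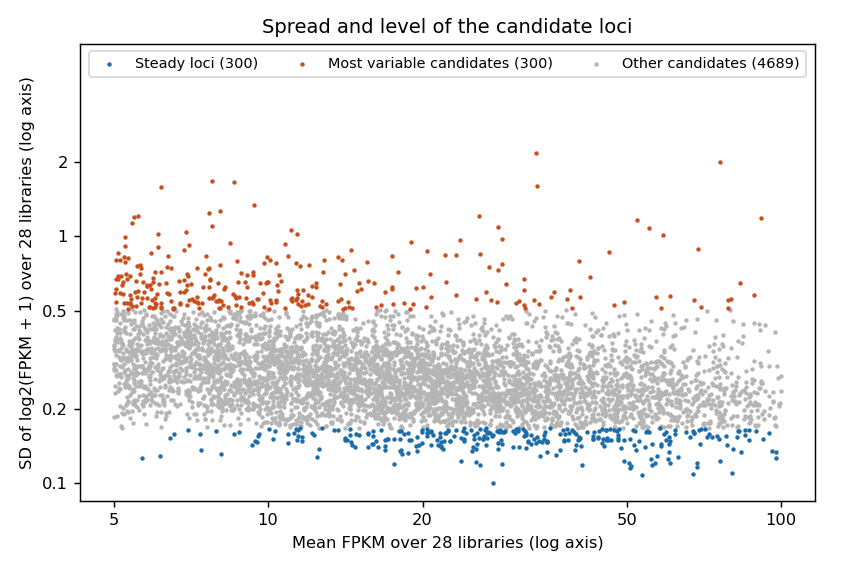
Each point is a candidate locus, with its mean FPKM over 28 libraries on the horizontal axis and its SD of log2(FPKM + 1) on the vertical axis, both log axes. The steady loci form the lower edge by construction and thin out to the left, with 16 of them under 10 FPKM, where 166 of the 300 most variable candidates lie.

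The locus of lowest spread lies on scaffold NW_017843193.1 from 8948884 to 9028378. It ran from 25.2 to 33.0 FPKM in July 2016 with a median of 26.4 (n = 9), from 24.6 to 30.9 in June 2017 with a median of 26.7 (n = 11), and from 25.4 to 29.4 in September 2017 with a median of 27.7 (n = 8). Its males had 28.0, 25 and 26.7 FPKM in June 2017 and 27.8, 25.4 and 29.4 FPKM in September 2017, inside the range of the females. Over all animals it averaged 27.4 ± 2.01 FPKM (SD, n = 28), and its highest library exceeded the lowest 1.34-fold. July 2016 female 7 was the highest library, and every session overlapped the others.

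The locus ranked 2 by SD lies on NW_017844517.1 from 32519123 to 32561345 and averaged 53.6 ± 4.12 FPKM (SD, n = 28). Its sessions ran from 45.7 to 60.6 FPKM in July 2016 (median 55.0), 47.2 to 63.1 in June 2017 (median 53.25) and 49.1 to 57.2 in September 2017 (median 52.5). Both its lowest library, July 2016 female 8, and its highest, June 2017 female 6, were female, and the sessions overlapped.

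The locus ranked 3 lies on NW_017844586.1 from 9272984 to 9304272 and averaged 67.2 ± 5.05 FPKM (SD, n = 28). Its values were 63.6 to 75.6 FPKM in July 2016 (median 68.3), 56.6 to 75.8 in June 2017 (median 65.4) and 55.6 to 74.5 in September 2017 (median 66.5). The July animals spanned the narrowest range of the 3 sessions at this locus, inside that of June.

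Rank 4, on NW_017843196.1 from 1018703 to 1049519, was the most abundant of the first 5 at 80.4 ± 6.10 FPKM (SD, n = 28). It overlaps another locus of the table, and without the strand in the row names the fragments of the pair cannot be told apart. July 2016 gave 71.4 to 91.3 FPKM (median 82.7), June 2017 gave 66.3 to 86.6 (median 80.3) and September 2017 gave 74.2 to 90.7 (median 78.4). The lowest value, 66.3 FPKM, was that of June 2017 male 3, and the lowest without it was 69.0 FPKM.

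Rank 5, on NW_017844429.1 from 28893528 to 28905628, averaged 50.7 ± 4.16 FPKM (SD, n = 28). At 12101 bases it was the shortest of the first 5 and had the smallest highest-to-lowest ratio of the 300, at 1.32. Its values ran from 44.5 to 56.4 FPKM in July 2016 (median 51.4), 46.2 to 58.7 in June 2017 (median 50.1) and 45.2 to 58.5 in September 2017 (median 49.6). Session medians of this locus lay closer to each other than the animals within any session.

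**Figure D2:**
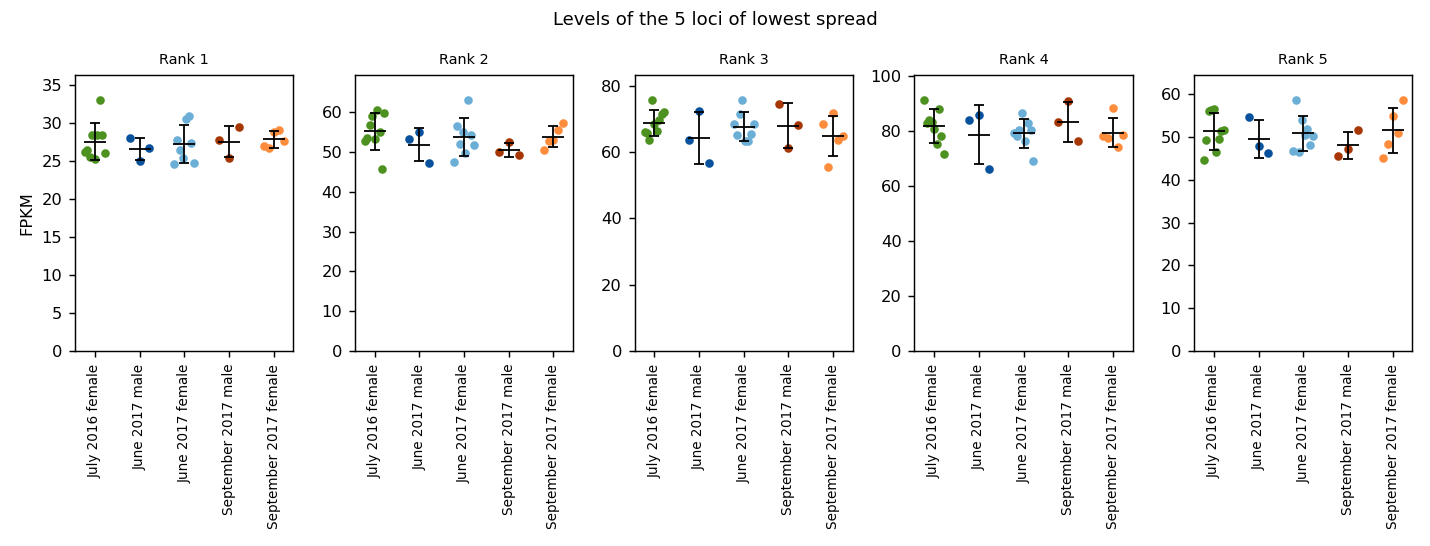
FPKM of the 5 loci of lowest SD, in rank order from left to right, with a point per animal by group of session and sex. Bars give the mean and SD of each group, axes start at 0, and all groups of a locus overlap.

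The edge of the list is gradual. The last 3 loci inside it, on NW_017844288.1 (6565090 to 6592733, 12.8 ± 1.57 FPKM), NW_017843484.1 (8590639 to 8647634, 58.1 ± 6.919 FPKM) and NW_017843658.1 (318002 to 337155, 35.4 ± 4.2 FPKM), had an SD of log2(FPKM + 1) of 0.167. The first 3 outside it also had an SD of 0.167. They lie on NW_017844411.1 (25540441 to 25570047, 40.3 ± 4.84 FPKM), NW_017843440.1 (20476578 to 20494273, 18.2 ± 2.21 FPKM) and NW_017843255.1 (31155160 to 31248276, 15.1 ± 1.86 FPKM). At that edge, a locus is a member or not by a difference smaller than printed here.

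Steady loci were more abundant and spread over longer intervals than the candidates they were drawn from. Their mean level had a median of 30.0 FPKM, against 9.14 at the most variable candidates and 17.4 over all candidates. Their length had a median of 37239.5 bases, against 15953.5 at the most variable and 25309 over all candidates. The rule set a window for both but did not rank by either. The share of candidates that were steady was 1.18% at 5 to 10 FPKM, 4.0% at 10 to 20, 8.84% at 20 to 50 and 11.4% at 50 to 100 FPKM. For the most variable candidates these shares were 12.2%, 4.61%, 2.55% and 2.60%. By length, 2.51% of candidates of 5 to 10 kb were steady, 3.94% of 10 to 20 kb, 6.14% of 20 to 50 kb and 9.30% of 50 to 100 kb. The most variable candidates fell along the same bins, at 10.5%, 6.6%, 3.88% and 3.72%.

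**Figure D3:**
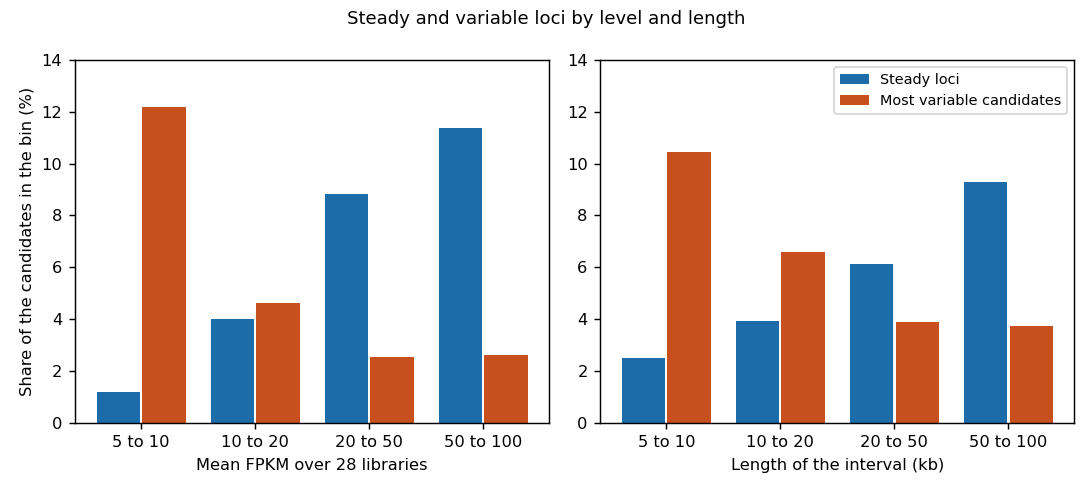
Share of candidates in each bin of mean FPKM (left) and of interval length (right) that belong to the 300 steady loci or to the 300 most variable candidates, in percent. The steady share climbs from 1.18% to 11.4% with level and from 2.51% to 9.30% with length, while the variable share is largest in the lowest bin of each.

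The share was largest where both level and length were high. Of the 92 candidates at 50 to 100 FPKM and 50 to 100 kb, 17 (18.5%) were steady, and of the 233 at 5 to 10 FPKM and 5 to 10 kb, 0 were. Across the 5289 candidates the SD had a Pearson r of -0.28 with log2 mean FPKM (Spearman rho -0.36) and of -0.20 with log2 length (rho -0.25). These are correlations across loci of the same libraries, and loci are not independent replicates. More fragments stand behind a value at a higher level or over a longer transcript, and the table holds interval lengths, not transcript lengths. The part of counting error in these shares was not tested.

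The same order held outside the window of the rule. An SD at or under that of the last steady locus was found at 135 of 1002 loci over 100 kb (13.5%) of the same levels, and at 9 of 1645 loci under 5 kb (0.547%). Among loci of the window's lengths at 100 FPKM or more it was found at 89 of 516 (17.2%). Inside the window of length and level, 450 loci were set aside for an r of 0.6 or more in size with the mitochondrial level. Of these, 12 (2.67%) had such an SD. The corresponding share of the candidates is 5.67%, fixed by the number chosen.

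Steady loci occurred across the whole range of level and length. The least abundant, on NW_017843255.1 from 31954359 to 32000398, averaged 5.68 ± 0.566 FPKM (SD, n = 28), and it overlaps another locus. The most abundant, on NW_017842605.1 from 2410759 to 2429105, averaged 97.9 ± 9.07 FPKM and also overlaps another. The shortest, 5016 bases on NW_017844458.1 from 686364 to 691379, averaged 28.6 ± 2.91 FPKM, and the longest, 99992 bases on NW_017843484.1 from 18985797 to 19085788, averaged 44.7 ± 4.63 FPKM. Overlap with another locus was about as common at steady loci (82, 27.3%) as at the most variable (84, 28%) and over all candidates (24.4%).

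The steady loci were scattered over 93 scaffolds, against 105 for the most variable and 200 for all candidates. On the 31 scaffolds with at least 50 candidates, between 0% and 14.3% of candidates were steady, with a median of 5.88%. The highest share was that of NW_017842605.1, with 10 of 70 candidates between positions 1935673 and 6076171. That stretch also holds the most abundant member and both members of the largest highest-to-lowest ratio, 1.80 (2227570 to 2277036) and 1.78 (1935673 to 2010782). At both, the lowest library was June 2017 male 3, at 12.4 and 12.0 FPKM, while the other libraries were at 14.9 FPKM or more. NW_017842414.1 held the largest number, 19 of 165 candidates.

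Steady loci were 300 of the 13192 tested loci, so most would stand alone along their scaffold even if spread at random. Of the 300 loci, 276 had no other member next to them, and the longest run of consecutive members was 2 loci, found 12 times. The locus nearest to a steady locus had a median SD of 0.280, against 0.327 beside the most variable and 0.303 beside all candidates. Levels of these nearest loci also differed, with medians of 15.5 FPKM beside steady loci, 9.91 beside the most variable and 13.0 beside all candidates. The nearest locus was itself steady for 17 of the 300 (5.67%), against 151 of 5282 candidates (2.86%). The loci of the 12 adjacent pairs were weakly correlated across animals: their r of log2(FPKM + 1) over 28 libraries ran from -0.32 to 0.37 with a median of 0.11. In 1 pair, on NW_017843807.1, the loci overlap (1556356 to 1564105 and 1563890 to 1604194), averaging 68.7 ± 5.54 and 68.6 ± 5.74 FPKM (SD, n = 28), and their r was 0.31. That pair was singled out after its values were seen.

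A list chosen for low SD is low in the libraries that chose it, so the rule was also applied to some sessions and read in others. The 300 steadiest candidates of the 19 libraries of 2017, with a median SD of 0.140 there, had a median SD of 0.160 in the 9 libraries of July 2016. In those July libraries the 300 most variable of 2017 had a median SD of 0.540 and the 5269 candidates of that choice 0.246. Of the 300, 282 (94%) lay under that candidate median, and 171 also belong to the 300 described here. In the other direction, the 300 steadiest of July 2016 had a median SD of 0.115 in July and of 0.186 in the 2017 libraries. There the most variable of July had 0.480 and its 4176 candidates 0.257, and 278 of the 300 (92.7%) lay under the candidate median. Of the list chosen in July, 111 belong to the 300 described here. Neither candidate median was matched for level or length, and the part of level and length in these shares was not tested. Across the 5289 candidates the SD in July 2016 had an r of 0.75 with the SD in 2017 (rho 0.66), over loci that share their libraries, level and length.

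**Figure D4:**
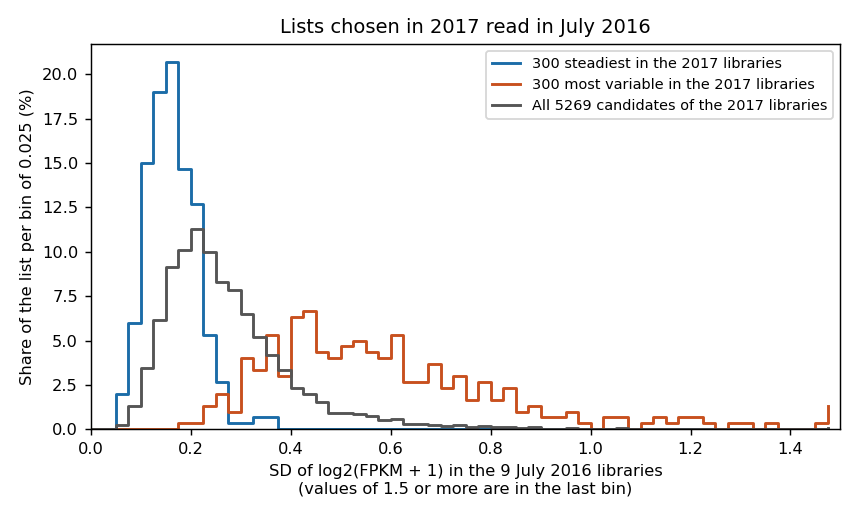
SD of log2(FPKM + 1) in the 9 July 2016 libraries for lists chosen in the 2017 libraries alone, as percent of each list per bin of 0.025. The list chosen as steady sits to the left with a median of 0.160, the most variable list to the right with 0.540, and all 5269 candidates between them with 0.246.

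Within each group of session and sex the steady loci varied less than the candidates. The median SD of steady loci was 0.140 in July 2016 females, 0.144 in June 2017 males, 0.141 in June 2017 females, 0.129 in September 2017 males and 0.131 in September 2017 females. The medians over all candidates were 0.245, 0.252, 0.249, 0.20 and 0.228 in the same order. These libraries took part in the choice, so the values are a description.

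Together the 300 loci took 1.165% ± 0.0908 (SD, n = 28) of the summed FPKM of a library, from 0.914% in June 2017 male 3 to 1.37% in July 2016 female 3. Their summed level ran from 9656 FPKM in June 2017 male 3 to 11289 FPKM in July 2016 female 5, and without June 2017 male 3 the lowest sum was 10186 FPKM and the lowest share 0.984%. With the 10 most abundant loci of each library out of the sum, the share was 1.61% on average and ran from 1.51% to 1.77%, and June 2017 male 3, at 1.55%, lay inside the range of the others.

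Deviations of steady loci from their own means had a common part in some libraries. The median deviation of the 300 loci from their own means was -0.15 on the log2 scale in June 2017 male 3 and -0.07 to 0.09 in the other 27 libraries. That male was the lowest library at 59 of the 300 loci (19.7%), against 679 of the candidates (12.8%), and no other library was lowest at more than 24. Only 56 of the 300 were above their own mean in it, against 95 to 205 in the other libraries. Its share of summed FPKM in the 10 most abundant loci was also the highest of the 28, and the part of that share in its low values was not tested. After each library's median deviation was removed, the median SD of the steady loci was 0.144, and 224 of the 300 (74.7%) had a smaller SD than before. With the same medians removed from all candidates, their median SD was 0.261, and 3587 (67.8%) had a smaller SD. The medians removed were those of the steady loci in both cases. A smaller SD at the steady loci is thus partly built in, and these shares are not compared.

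**Figure D5:**
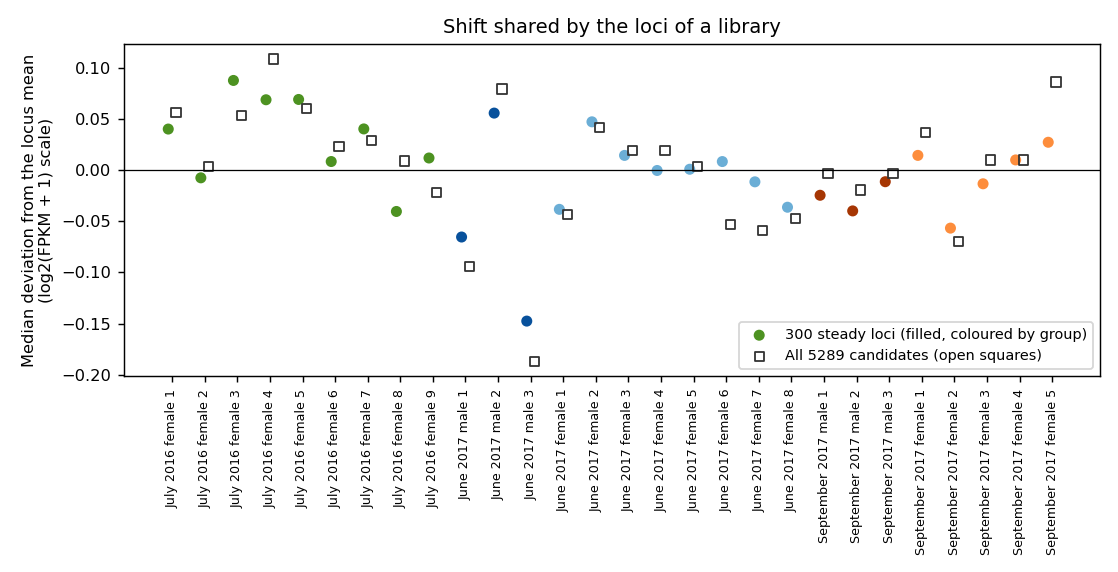
Median deviation from the locus mean, on the log2(FPKM + 1) scale, in each of 28 libraries, for the 300 steady loci (filled points, coloured by group) and for all 5289 candidates (open squares). June 2017 male 3 is the lowest library for both, at -0.15 for the steady loci and -0.19 for the candidates.

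Pairs of steady loci were weakly correlated across animals, with a median r of 0.10 over 44850 pairs, against 0.00 for the most variable and 0.05 for all candidates. After each library's median deviation was removed, the median r of the steady loci was -0.00. The other lists were not recomputed in that way. The medians removed were those of the steady loci themselves. A lower r between these loci is thus built in, and nothing is read from that value. The highest r about the group means joined NW_017842414.1 (28599780 to 28648739, 21.7 ± 2.21 FPKM) with NW_017844682.1 (13257168 to 13324069, 46.4 ± 5.43 FPKM), at 0.78. Next came NW_017842414.1 (57435058 to 57523526, 28.0 ± 2.95 FPKM) with NW_017842395.1 (11597239 to 11654554, 20.8 ± 2.44 FPKM), at 0.77. Both were picked as the highest of 44850 values about the group means. With the group means left in, as for the median above, their r over 28 libraries was 0.62 and 0.55.

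The comparisons between sessions and sexes ask how far the levels of skin RNA changed with the time of sampling and with sex. They were made with limma (session and sex as terms, all 28 libraries, the 13192 loci averaging 1 FPKM or more, two-sided tests, Benjamini-Hochberg adjustment). All 300 steady loci were among the loci tested. An adjusted p under 0.05 counts as a call. A low SD over all libraries limits how far session means can lie apart, so nothing is read from how many steady loci were called.

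Between June 2017 and July 2016, 10 steady loci were called, 1 higher and 9 lower in June. Over all tested loci 7.24% were called, 2.18% higher and 5.06% lower. At the steady loci called, the fold ran from 1.17 to 1.20 on the FPKM + 1 scale. The median log2 difference of the 300 was -0.04, equal to that of all tested loci, and single loci ran from -0.26 to 0.22. Without June 2017 male 3 the median was -0.03. The direction of the calls at steady loci changed with the scaling: with median-of-ratios factors 5 were higher and 3 lower, and after quantile normalization 4 were higher and 0 lower. The median of the 300 was then 0.01 under either scaling. Calls over all tested loci under those scalings are not given here, so the change is not read as particular to the steady loci. The 10 loci called as reported had ranks by SD from 114 to 293, and a low rank itself limits how far the sessions can differ.

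The largest fall in June 2017 was at NW_017842442.1 from 1332278 to 1340624, a locus of 8347 bases. It ran from 60.0 to 73.2 FPKM with a median of 66.0 in June 2017 (n = 11), against 68.5 to 90.4 FPKM with a median of 78.5 in July 2016 (n = 9). All 11 June animals were under the July mean, and the ranges overlapped. The means were 66.2 ± 4.66 FPKM in June 2017 and 79.7 ± 6.81 FPKM in July 2016 (SD), a log2 difference of -0.26 (SE 0.0666, limma adjusted p = 0.0163). Over the alternatives the limma adjusted p ran from 0.00973 to 0.0952. The call was lost with median-of-ratios and quantile scaling, and kept without any single library.

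The second fall was at NW_017843503.1 from 696456 to 743185, which overlaps another locus. It ran from 37.1 to 46.3 FPKM with a median of 42.5 in June 2017, against 48.3 to 60.4 FPKM with a median of 49.8 in July 2016, with no overlap between the sessions. Means were 42.2 ± 2.89 FPKM in June 2017 (n = 11) and 51.0 ± 3.74 FPKM in July 2016 (n = 9), a log2 difference of -0.25 (SE 0.0634, limma adjusted p = 0.0165, 0.00990 to 0.0626 over the alternatives). Only quantile normalization ended this call among the alternatives. The September 2017 animals, at 38.9 to 53.22 FPKM, overlapped both.

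The 1 steady locus called higher in June 2017 lies on NW_017843947.1 from 9087057 to 9106271. It ran from 33.5 to 46.7 FPKM with a median of 40.0 in June 2017, against 29.3 to 40.4 FPKM with a median of 35.0 in July 2016, so the ranges overlapped. Means were 40.6 ± 3.74 FPKM in June 2017 (n = 11) and 34.7 ± 3.12 FPKM in July 2016 (n = 9), a log2 difference of 0.22 (SE 0.0664, limma adjusted p = 0.0383, 0.0154 to 0.0776 over the alternatives). Leaving out any of July 2016 females 3, 4, 6, 8 or 9 or of June 2017 females 1, 5, 6 or 8 ended this call, with limma adjusted p up to 0.0776, as did the libraries of those sessions alone and leaving out the 3 libraries of highest top-10 share. The other 7 loci called in this comparison were lower in June 2017 by log2 differences of -0.23 to -0.24 (limma adjusted p of 0.0164 to 0.0473, and 0.00752 to 0.152 over their alternatives). Out of 39 alternatives each, the call was lost in 27 at NW_017844000.1 (9986413 to 10069392), 17 at NW_017843484.1 (23233522 to 23289909) and 14 at NW_017844169.1 (1438193 to 1446923). It was lost in 7 each at NW_017842243.1 and NW_017843196.1, in 3 at NW_017844374.1 and in 2 at NW_017843657.1.

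Between September 2017 and July 2016, 3 steady loci were called, 1 higher and 2 lower in September. Over all tested loci 1.95% were called, 0.652% higher and 1.3% lower. The median log2 difference of the 300 was -0.03, against 0.00 over all tested loci, and single loci ran from -0.29 to 0.28. This median was 0.00 after quantile normalization. Both comparisons share the July 2016 libraries, and 1 locus was called in both, which is 10% of the June list and 33.3% of the September list.

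That shared locus lies on NW_017843196.1 from 13777764 to 13814068. It ran from 48.0 to 65.7 FPKM with a median of 54.8 in September 2017 (n = 8) and from 51.4 to 68.2 FPKM with a median of 57.2 in June 2017 (n = 11), against 58.0 to 76.9 FPKM with a median of 63.9 in July 2016 (n = 9). The ranges overlapped, and 7 of 8 September animals were under the July mean. The September mean was 55.0 ± 4.98 FPKM and the July mean 65.5 ± 5.82 FPKM, a log2 difference of -0.29 (SE 0.0699, limma adjusted p = 0.0249, 0.0160 to 0.105 over the alternatives). Leaving out September 2017 female 2 or female 5 ended the call, with limma adjusted p up to 0.0637, as did quantile normalization (0.105) and the libraries of the sessions compared alone (0.0852). In June 2017, at 57.2 ± 4.93 FPKM, the log2 difference from July was -0.23 (SE 0.0630, limma adjusted p = 0.0270, 0.0163 to 0.152 over the alternatives). That June call was lost with both other scalings, in the libraries of those sessions alone, without the 3 libraries of highest top-10 share, and without July 2016 female 1 or 3 or June 2017 female 6.

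The other fall was at NW_017842185.1 from 4138548 to 4160952. It ran from 65.9 to 87.3 FPKM with a median of 80.2 in September 2017, against 89.9 to 105.2 FPKM with a median of 92.7 in July 2016, so the sessions did not overlap. Means were 78.2 ± 7.75 FPKM in September 2017 (n = 8) and 94.4 ± 4.73 FPKM in July 2016 (n = 9), a log2 difference of -0.28 (SE 0.0738, limma adjusted p = 0.0457, 0.0377 to 0.202 over the alternatives). Leaving out 1 library ended this call in 20 of 28 cases, with limma adjusted p up to 0.124. It was kept without July 2016 female 8, June 2017 male 3, June 2017 females 2, 3, 5, 7 or 8, or September 2017 female 3, and the sign held in all 28 cases. No filter, quantile normalization, females alone, the libraries of those sessions alone and leaving out the 3 libraries of highest top-10 share also ended it.

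The steady locus called higher in September 2017 lies on NW_017844299.1 from 3594867 to 3662372. It ran from 32.24 to 38.5 FPKM with a median of 35.7 in September 2017, against 27.0 to 32.22 FPKM with a median of 30.0 in July 2016, and the ranges touched without overlap. Means were 35.0 ± 2.41 FPKM in September 2017 (n = 8) and 29.5 ± 1.73 FPKM in July 2016 (n = 9), a log2 difference of 0.28 (SE 0.0710, limma adjusted p = 0.0376, 0.0139 to 0.0857 over the alternatives). It was lost without any of July 2016 females 1, 3, 6, 7 or 9, June 2017 male 1, September 2017 male 3 or September 2017 females 1, 3, 4 or 5, with limma adjusted p up to 0.0857, and also among females alone and in the libraries of those sessions alone.

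Between September and June 2017, limma called 0 steady loci. Over all tested loci 0.0379% were called, 0.0303% higher and 0.00758% lower in September. Differences at single steady loci ran from -0.21 to 0.23 on the log2 scale, with a median of 0.02, against 0.04 over all tested loci. The median was -0.04 with median-of-ratios scaling, -0.00 after quantile normalization and 0.00 without June 2017 male 3.

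Between males and females, limma again called 0 steady loci, and 0.091% of all tested loci were called, 0.00758% higher and 0.0834% lower in males. Differences ran from -0.19 to 0.12 with a median of -0.03, the same as over all tested loci, and the median was 0.00 with median-of-ratios scaling and -0.01 without June 2017 male 3. Only 6 males, of 2017 alone, enter this comparison, and a p that misses the threshold does not show equal levels. The September minus June change did not differ between males and females at any steady locus past the threshold (limma, 0 of 300 called). Over all tested loci 0% were called in that interaction.

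Part of the list changed when it was rebuilt under other settings. With another pseudocount or none, 280 and 278 of the 300 stayed in it. With median-of-ratios scaling or quantile normalization 224 stayed under each, and with the SD taken about the group means 208 stayed. Among females alone 229 stayed, in the 2017 libraries alone 171, and in July 2016 alone 111. Leaving out 1 library kept 265 to 287, the fewest without June 2017 male 3, and 236 stayed without any single library. The same 98 loci stayed in every rebuilt list other than that of July 2016 alone and that which sets overlapping loci aside. They include all of the first 5 and 75 of the first 100, but 1 of the last 100. Their median length was 48190 bases and their median level 33.8 FPKM, against 32235.5 bases and 28.2 FPKM for the other 202.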

How the data were processed

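Total RNA of skin was isolated with a column kit for lipid tissue and DNase, and strand-specific libraries were made, per the labels' protocols. Named in the submitters' processing notes, with no roles given, are Bowtie, Cufflinks 2.2.1, FastQC 0.1, TopHat2 2.1.1 and Trimmomatic 0.33. Neither their settings nor the annotation, nor whether strand was used, is stated in the sources used here. FPKM values were deposited by the authors, 1 column per library; the unit is not written in the file and was read from the Cufflinks step and the values. FPKM divides by the fragments of a library, so a very abundant locus lowers all others.

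Members and the loci named were chosen with earlier results of these data known. Named are the 5 lowest SDs, the 3 loci each side of the edge, the extremes of level, length and ratio, the largest rises and falls called (up to 2 each per comparison), the longest runs of members, and the 2 most correlated pairs. The longest runs came out as 12 equal pairs, which are summarised. Overlap means at least 1 shared base. Positions count from 1. Columns were matched to samples by title; sessions come from the sampling date and sex from its label. The title of July 2016 female 6 has the year 2015 and its date 2016, and the date was used.

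On the log2(FPKM + 1) scale used throughout, differences of low loci are understated. Values were tested with limma 3.58.1 in R 4.3.3 (empirical Bayes with trend and robust settings, 24 residual degrees of freedom, 23 for the interaction model). Lists and figures were made in Python 3.11.15 with pandas 2.3.3 and matplotlib 3.10.9. Relative depth came from ratios of low values at 4754 loci with a mean under 0.5 FPKM, and 99.7% of 378 pairs of libraries lay within 0.05 (log2) of it. Labels give no batch. Alternatives changed the pseudocount (0.1), the filter on low values, the scaling, covariates and the libraries used.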

Additional observations from a re-analysis of the deposited data

Results flagged for a closer look

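Groups of 4 to 10 samples were searched for a highest or lowest sample far from the rest. Of 156 groups of named loci and library measures, 11 (7.05%) had one, and chance gives about 1 in 20. At NW_017843193.1 (8948884 to 9028378), the steadiest locus, July 2016 female 7 had 33.0 FPKM, against 25.2 to 28.4 FPKM in the other 8 females. At NW_017843484.1 (8590639 to 8647634) July 2016 female 3 had 78.7 FPKM, against 46.3 to 62.1 FPKM. At NW_017843503.1 (696456 to 743185), called lower in June 2017, July 2016 female 5 had 60.4 FPKM, against 48.3 to 52.7 FPKM.

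In June 2017 females, NW_017842131.1 (15565169 to 15575256) had 45.3 FPKM in female 2, against 28.4 to 34.8 FPKM. NW_017842421.1 (12599972 to 12694861) had 62.7 FPKM in female 5, against 45.8 to 51.3 FPKM. NW_017844100.1 (800286 to 820213) had 55.5 FPKM in female 8, against 41.0 to 46.0 FPKM.

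In September 2017 females, NW_017844000.1 (10110111 to 10142204) had 25.5 FPKM in female 5, against 20.1 to 21.2 FPKM. NW_017844288.1 (1530314 to 1559565) had 32.2 FPKM in female 2, against 24.8 to 26.9 FPKM. NW_017843947.1 (9087057 to 9106271) had 40.6 FPKM in that same female, against 34.9 to 36.3 FPKM.

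The share of summed FPKM in the steady loci was 0.984% in June 2017 female 6, against 1.15% to 1.23% in the other 7 females. It was 1.05% in September 2017 female 4, against 1.17% to 1.21% in the other 4. With rows under 200 bases out of the sum, the share was 1.17% in June 2017 female 6, against 1.156% to 1.24% in the other 7, and 1.24% in September 2017 female 4, against 1.17% to 1.25% in the other 4, so neither stood apart.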

How the results depend on the processing

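The number of steady loci called between June 2017 and July 2016, 10 as reported, was 4 after quantile normalization, 3 with the libraries of those sessions alone and 3 without the 3 libraries of highest top-10 share. Leaving out 1 library gave 4 to 12: 6 without July 2016 female 3, 4 or 5 or June 2017 female 8, 5 without June 2017 female 1 and 4 without June 2017 female 6. The 3 called between September 2017 and July 2016 became 1 after quantile normalization, among females alone, and without July 2016 female 6, the library whose title year differs, and 0 with the libraries of those sessions alone. Leaving out 1 library gave 0 to 4. It was 0 without September 2017 female 5, and 1 without any of July 2016 females 1, 3, 6, 7 or 9, June 2017 male 1, September 2017 male 3 or September 2017 females 1, 2 or 4. The session fits used fewer samples, and the cause of the other changes was not tested. Calls over all tested loci under these settings are not given here, so nothing about the steady loci is read from these counts. In the 2017 libraries alone 171 of 300 members stayed, and leaving out the 10 most abundant loci moved the share of summed FPKM to 1.61%. Of the values labelled, with the fit without July 2016 female 6 entered under both its names, 612 were the same, 59 fell below the threshold and 26 moved. Among single calls, only the largest rises and falls of each comparison were labelled, so losses of the other calls are not in these counts. Called loci were the same if sign and call held, counts if equal or within a fixed fold, and other values if within a spread. For median log2 differences that spread was 0.152, the median SD of the steady loci. It is wider than any of these medians, so their label says little. Medians near 0 changed sign with scaling. No paired analysis was possible because the labels give no replicate numbers and every library is another animal. Without read counts, the counting error of single values could not be given.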
